A study of Rattus norvegicus with 15 samples.

Results

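Heme is made from glycine and succinyl-CoA by enzymes that work in a fixed order, and 8 of them are described here in rat femur: Alas1, Alas2, Alad, Uros, Urod, Cpox, Ppox and Fech. They were found by gene symbol among the 30454 genes of the deposited tables, each symbol matched a single row, and all 8 passed the filter on low values that 14416 genes passed. Femurs of female SD (Sprague-Dawley) rats, aged 8 weeks at the start, gave 15 libraries of polyadenylated RNA in 5 groups of 3. PJ, P, J and OVX rats had both ovaries removed, which takes away the main source of estrogen, and Sham rats lost a like amount of fat instead. After 6 weeks of recovery, PJ rats were gavaged daily for 8 weeks with the combined extract of Juglans regia (walnut) and Psoralea corylifolia at 4.0 g/kg, P rats with the Psoralea corylifolia extract at 2.4 g/kg, and J rats with the Juglans regia extract at 1.6 g/kg. OVX and Sham rats received saline. Whether every library is from a rat of its own is not stated in the labels, so p-values here measure the spread between libraries, which may be technical. The labels also do not say which segment of the femur was taken or whether marrow was flushed out.

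The pathway starts and ends in mitochondria, and its middle steps run in the cytosol. The synthases Alas1 and Alas2 catalyse the same rate-limiting step, with Alas1 made in most cells and Alas2 made in developing red cells. Femoral marrow is a main site of red cell formation in the rat, and developing red cells make most of the body's heme, which they place in hemoglobin. The transcription factors GATA1 and KLF1 are known to switch on Alas2 and other heme enzymes in red cell precursors.

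The stretches just before the annotated gene starts are shown for the 2 synthases, because they had the largest (Alas2) and the smallest (Alas1) difference between OVX and Sham femurs, and for Fech, which closes the pathway and was the only other enzyme with a GATA motif in its window. RefSeq windows of build GRCr8, running from 250 bases before to 50 bases after the annotated start, were matched by symbol for 7 of the 8 enzymes, all except Cpox. The 250 bases before each start are printed 5′ to 3′ on the strand of the gene, with the GATA motif in capitals.
Alas2, chrX:22895200-22895449, plus strand: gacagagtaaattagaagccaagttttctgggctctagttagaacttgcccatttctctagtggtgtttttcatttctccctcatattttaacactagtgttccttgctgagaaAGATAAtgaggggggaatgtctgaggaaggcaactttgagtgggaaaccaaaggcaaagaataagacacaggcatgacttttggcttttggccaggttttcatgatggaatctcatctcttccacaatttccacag
Alas1, chr8:115768643-115768892, minus strand: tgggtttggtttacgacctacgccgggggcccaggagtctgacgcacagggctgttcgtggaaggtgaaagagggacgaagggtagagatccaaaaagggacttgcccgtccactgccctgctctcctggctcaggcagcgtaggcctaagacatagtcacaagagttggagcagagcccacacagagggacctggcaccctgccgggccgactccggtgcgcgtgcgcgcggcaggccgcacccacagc
Fech, chr18:60248526-60248775, minus strand: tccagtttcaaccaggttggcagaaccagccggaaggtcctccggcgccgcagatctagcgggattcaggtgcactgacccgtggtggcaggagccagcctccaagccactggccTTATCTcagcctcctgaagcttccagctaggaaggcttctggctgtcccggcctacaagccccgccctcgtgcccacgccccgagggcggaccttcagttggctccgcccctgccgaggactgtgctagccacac

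The GATA motif was searched on both strands as GATA with an A or T before it and an A or G after it. It occurred once in the Alas2 window, beginning 136 bases before the start on the strand of the gene, and once in the Fech window, beginning 135 bases before the start as the reverse complement. It did not occur in the windows of Alas1, Alad, Uros, Urod and Ppox, and 30.3% of all 33469 RefSeq windows of this length held it. A KLF motif, CCNCNCCC on either strand and with overlapping matches counted apart, occurred in 46.3% of all windows. It matched 4 times in Alad, 3 times in Fech, once each in Alas1, Uros, Urod and Ppox, and not in Alas2. The Alas2 window was also the least rich in G and C of the 7, at 44.3%, against 64.0% for Alas1 and 66.0% for Fech. An ATG begins 16 bases after the annotated Alas2 start, and whether that start is the one used in marrow was not tested. The Alas2 window may lie within the gene, so its motifs and base content may not be those of a promoter. These matches describe letters and not bound sites.

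Levels are given as FPKM, the fragments per kilobase of gene and 1000000 reads, so levels may be compared between enzymes. Library totals recovered from these values ran between 34.4 and 61.0 in units of 1000000 reads, and an enzyme had between 174 reads (Uros in Sham 2) and 94291 reads (Alas2 in OVX 2) in a library, so no enzyme was near the limit of detection. A floor of 3 reads corresponds to 0.0492 to 0.0873 reads per 1000000 and covers counting error only. Pearson correlations of log2(FPKM + 1) over the tested genes were 0.838 to 0.974 within groups and 0.587 to 0.967 between groups, so no 2 libraries were copies of each other. P 2 and PJ 3 stood apart from their groups for 7 of the 8 enzymes, and counts and folds that move by over 1.5 times without them are also given without them.

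**Figure D1:**
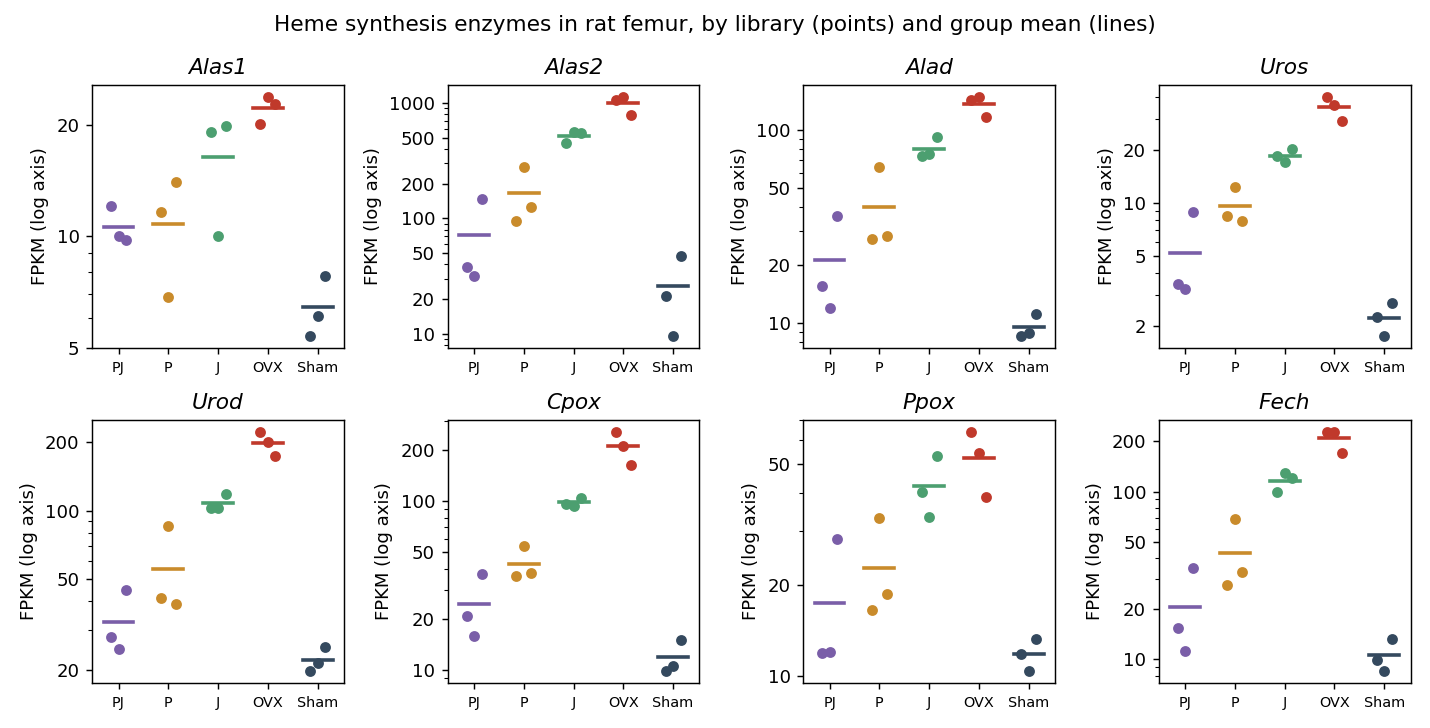
FPKM of each enzyme (vertical axes, logarithmic, with a scale of their own per enzyme) in the PJ, P, J, OVX and Sham groups, with 1 point per library and a line at the group mean. For all 8 enzymes the 3 OVX libraries lie above the 3 Sham libraries, and in P and PJ a single library, P 2 or PJ 3, lies above its group for every enzyme except Alas1.

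The first comparison set OVX femurs against Sham femurs. These groups also differed in cell type markers, with cartilage markers at 3.25 to 10.3 FPKM in OVX and 4714 to 10249 FPKM in Sham. The parts of the surgery and of the piece of bone sampled cannot be told apart in these groups and were not tested. All 8 enzymes rose in OVX femurs against Sham femurs, by 3.46-fold (Alas1) to 38.5-fold (Alas2) in mean FPKM, where 25.3% of all tested genes were called higher (limma, Benjamini-Hochberg adjusted p below 0.05). Without Sham 3, the Sham library with the most Alas2, the Alas2 ratio of means was 64.8. The median log2 fold change was 3.59 over the enzymes and -0.04 over all tested genes. The 3 OVX libraries were above the 3 Sham libraries for all 8 enzymes, and 31.6% of tested genes showed that order. In bulk RNA of this kind, fewer cells of a type and less RNA per cell cannot be told apart.

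Alas2, the red cell synthase, had 1072, 1132 and 781 FPKM in OVX libraries 1 to 3, against 21.2, 9.51 and 46.8 FPKM in Sham libraries 1 to 3. The lowest OVX library was far above the highest Sham library, and the Sham libraries themselves were widely spread. The difference on the log2(FPKM + 1) scale was 5.46 ± 0.60 (SE, limma adjusted p = 9.79e-06), the 25th highest of all tested genes. Alas1, the synthase of most cell types, had 20.1, 23.8 and 22.7 FPKM in OVX femurs, against 5.37, 6.09 and 7.81 FPKM in Sham femurs. The groups were well separated and tight, and the difference was the smallest of the 8 at 1.65 ± 0.26 on the log2 scale (SE, limma adjusted p = 0.000177).

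Alad, the cytosolic enzyme that joins aminolevulinate into porphobilinogen, had 143, 148 and 117 FPKM in OVX femurs, against 8.58, 8.88 and 11.2 FPKM in Sham femurs. Uros, which closes the linear tetrapyrrole into the ring of uroporphyrinogen, had 39.9, 36.1 and 29.1 FPKM in OVX femurs, against 2.25, 1.76 and 2.704 FPKM in Sham femurs. Urod, which trims the side chains of that ring, had 222, 199.9 and 173 FPKM in OVX femurs, against 19.8, 21.4 and 25.1 FPKM in Sham femurs. The groups did not come near each other for any of these cytosolic enzymes, and OVX 3 was the lowest OVX library in each. The log2 fold changes were 3.70 ± 0.36 for Alad, 3.48 ± 0.28 for Uros and 3.11 ± 0.28 for Urod (SE), with limma adjusted p of 3.6e-06, 8.83e-07 and 1.81e-06 in that order. Because Uros was low in Sham femurs, the added 1 in the log2 scale lowers its fold change, and its ratio of mean FPKM, 15.7, was above that of Alad, 14.2.

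The last steps return to the mitochondrion. Cpox, coproporphyrinogen oxidase, had 258, 212 and 163 FPKM in OVX femurs, against 9.93, 10.6 and 15.2 FPKM in Sham femurs. Ppox, which oxidises protoporphyrinogen to protoporphyrin, had 63.9, 54.2 and 38.8 FPKM in OVX femurs, against 11.8, 10.4 and 13.3 FPKM in Sham femurs. Fech, ferrochelatase, which inserts iron to give heme, had 228, 226 and 171 FPKM in OVX femurs, against 9.95, 8.54 and 13.3 FPKM in Sham femurs. Ppox stood out among the late enzymes for its small difference, and its groups still did not overlap. The log2 fold changes were 4.03 ± 0.28 for Cpox, 2.03 ± 0.33 for Ppox and 4.18 ± 0.38 for Fech (SE), with limma adjusted p of 3.15e-07, 0.000216 and 2.02e-06 in that order.

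**Figure D2:**
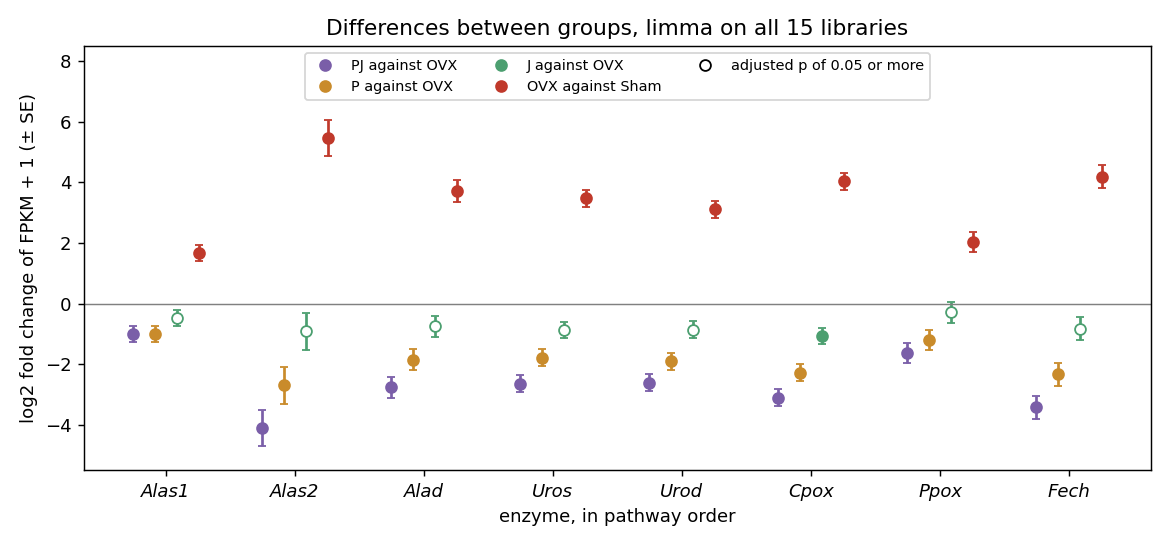
Log2 fold change of FPKM + 1 (vertical axis, with the SE of the limma fit as bars) for each enzyme in pathway order, in PJ, P and J against OVX and in OVX against Sham. Open points did not pass an adjusted p of 0.05, and every J against OVX point except that of Cpox is open.

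Each extract group was then set against the same 3 OVX libraries, so these comparisons are not independent of each other or of OVX against Sham. Cartilage markers differed here too, at 35.4 to 893 FPKM in PJ, 55.6 to 3641 in P and 13.3 to 323 in J, against 3.25 to 10.3 in OVX. The parts of the extract and of the piece of bone sampled cannot be told apart and were not tested. In PJ femurs all 8 enzymes fell against OVX femurs, by 2.09-fold (Alas1) to 13.8-fold (Alas2) in mean FPKM, where 14.6% of tested genes were called lower. The median log2 fold change was -2.70 over the enzymes and 0.22 over all tested genes. Without PJ 3 the PJ folds were larger, at 28.6 for Alas2, 15.6 for Fech, 10.4 for Uros and 9.83 for Alad, against 13.8, 10.1, 6.72 and 6.42 with it. In P femurs all 8 also fell, by 2.05-fold (Alas1) to 5.94-fold (Alas2), where 15.0% of tested genes were called lower, and the medians were -1.88 over the enzymes and 0.12 over all tested genes. Without P 2 the Alas2 fold in P was 8.99. In J femurs Cpox alone passed the test, where 2.79% of tested genes were called lower, and the medians were -0.85 over the enzymes and 0.11 over all tested genes. All 3 libraries lay below all 3 OVX libraries for 8 enzymes in PJ, 8 in P and 7 in J (all except Ppox), an order found in 19.2%, 20.8% and 14.3% of tested genes for PJ, P and J in that order.

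Alas2 had 38.1, 31.6 and 147 FPKM in PJ libraries 1 to 3, against 1072, 1132 and 781 FPKM in OVX libraries. P libraries had 95.3, 281 and 126 FPKM and J libraries 453, 556 and 553 FPKM of Alas2, against the same OVX values. PJ 3 and P 2 were each more than double the next library of their group, which is 38.1 FPKM in PJ and 126 FPKM in P, while the J libraries lay close together. Alas2 fell in both, with log2 fold changes of -4.10 ± 0.60 in PJ (SE, limma adjusted p = 0.000205) and -2.70 ± 0.60 in P (adjusted p = 0.00377), the 12th lowest of all tested genes in each. With P 2 and PJ 3 both left out, the log2 fold changes of Alas2 were -4.78 ± 0.47 in PJ and -3.15 ± 0.47 in P (SE, limma adjusted p = 2.14e-05 and 0.000436). In J its log2 fold change of -0.92 ± 0.60 (SE) did not pass, with a limma adjusted p of 0.358.

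Alas1 had 12.1, 10.0 and 9.77 FPKM in PJ, 11.6, 6.86 and 14.0 FPKM in P and 19.1, 10.0 and 19.9 FPKM in J, against 20.1, 23.8 and 22.7 FPKM in OVX. P 2 and PJ 3, the highest libraries of their groups for the other 7 enzymes, were the lowest for Alas1. J 2 was also the lowest J library for Alas1 while it was the highest for Alas2 and Fech. Alas1 fell 2.09-fold in PJ in mean FPKM (limma adjusted p = 0.00853). Its log2 fold changes were -1.02 ± 0.26 in P and -0.47 ± 0.26 in J (SE), with limma adjusted p of 0.00873 and 0.28.

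Among the cytosolic enzymes, Alad had 15.6, 12.1 and 35.9 FPKM in PJ, 27.4, 64.1 and 28.4 FPKM in P and 73.3, 75.4 and 91.4 FPKM in J, against 143, 148 and 117 FPKM in OVX. Uros had 3.49, 3.26 and 8.88 FPKM in PJ, 8.48, 12.3 and 7.89 FPKM in P and 18.4, 17.1 and 20.2 FPKM in J, against 39.9, 36.1 and 29.1 FPKM in OVX. Urod had 27.9, 24.9 and 45.1 FPKM in PJ, 41.6, 86.0 and 39.1 FPKM in P and 102, 103 and 119 FPKM in J, against 222, 199.9 and 173 FPKM in OVX. Every extract library was below every OVX library for these enzymes, and within P and PJ the high library was the same each time. In PJ their log2 fold changes were -2.77 ± 0.36, -2.64 ± 0.28 and -2.61 ± 0.28 (SE) for Alad, Uros and Urod, and the largest limma adjusted p was 9.01e-05. In P they were -1.85 ± 0.36, -1.78 ± 0.28 and -1.90 ± 0.28 in the same order, and the largest adjusted p was 0.00167. In J they were -0.76 ± 0.36, -0.87 ± 0.28 and -0.87 ± 0.28, and none passed (limma adjusted p of 0.212, 0.0795 and 0.0781).

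Cpox had 20.8, 16.0 and 37.2 FPKM in PJ, 36.1, 54.1 and 37.6 FPKM in P and 96.9, 93.6 and 105 FPKM in J, against 258, 212 and 163 FPKM in OVX. Its J libraries lay close together, and all were well below OVX. It fell in all 3 comparisons, with log2 fold changes of -3.11 ± 0.28 in PJ, -2.28 ± 0.28 in P and -1.07 ± 0.28 in J (SE), and limma adjusted p of 1.83e-05, 0.000109 and 0.0407. Ppox had 11.9, 12.0 and 28.3 FPKM in PJ, 16.4, 33.1 and 18.6 FPKM in P and 40.4, 33.4 and 53.3 FPKM in J, against 63.9, 54.2 and 38.8 FPKM in OVX. J and OVX overlapped for Ppox, since J 1 and J 3 were above OVX 3. The log2 fold changes of Ppox were -1.62 ± 0.33 in PJ, -1.21 ± 0.33 in P and -0.29 ± 0.33 in J (SE), with limma adjusted p of 0.00191, 0.0125 and 0.613.

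Fech had 15.4, 11.3 and 35.0 FPKM in PJ, 27.8, 69.1 and 33.1 FPKM in P and 98.9, 129 and 120 FPKM in J, against 228, 226 and 171 FPKM in OVX. After Alas2 it had the lowest fold changes of the enzymes in PJ, -3.42 ± 0.38, and in P, -2.34 ± 0.38 on the log2 scale (SE, limma adjusted p = 3.3e-05 and 0.000502). With P 2 and PJ 3 left out, Fech had -3.87 ± 0.21 in PJ and -2.73 ± 0.21 in P (limma adjusted p = 1.09e-06 and 1.74e-05). In J the value was -0.84 ± 0.38 and did not pass (limma adjusted p = 0.191). The count of enzymes called in J depended on the fit: 6 passed when J and OVX alone were fitted, 5 without P 2 and PJ 3, and none with no filter on low values. It was 2 without P 2 and 3 without PJ 3. It was 0 without Sham 1, Sham 2, OVX 1, OVX 2, P 1, P 3, PJ 1 or any 1 of the J libraries. Over all tested genes 402 were called lower in the main fit. With J and OVX alone, without P 2 and PJ 3, and with no filter there were 610, 933 and 267. There were 542 without P 2, 644 without PJ 3, and 296 to 345 without Sham 1, Sham 2, P 1, P 3 or PJ 1. Without OVX 1, OVX 2, J 1, J 2 or J 3 there were 12, 52, 160, 248 and 49. Ppox in P was no longer called without OVX 1 (limma adjusted p = 0.0553) or without P 1 (adjusted p = 0.0532).

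How far the extract groups stood from Sham was compared next. In J femurs all 8 enzymes were higher than in Sham femurs, where 23.0% of tested genes were called higher, with Alas2 20.2-fold and Alas1 2.55-fold higher in mean FPKM. In P femurs 6 were higher, all except Alas1 and Ppox, where 5.95% of tested genes were called higher, and the ratio of means was 6.48 for Alas2. Without Sham 3 the Alas2 ratio was 33.9 in J and 10.9 in P, and without P 2 it was 4.28 in P. In PJ femurs Cpox alone passed as higher, where 7.72% of tested genes were called higher. Cpox averaged 24.7 ± 11.1 FPKM in PJ and 11.9 ± 2.87 FPKM in Sham (SD, n = 3 each), with a log2 fold change of 0.93 ± 0.28 (SE, limma adjusted p = 0.049). That count was 3 without P 2 or PJ 2, and 0 when any other library except Sham 3 was left out. Genes called higher over all tested genes numbered 1113 in the main fit, 1892 without P 2 and 1266 without PJ 2. They numbered 306 to 1069 in the fits where the enzyme count was 0. The 6 enzymes of P became 3 without Sham 2 or when P and Sham alone were fitted. There 447 and 454 of all tested genes were called higher in that order, beside 858 in the main fit. Alas2 averaged 72.3 ± 64.9 FPKM in PJ and 25.8 ± 19.1 FPKM in Sham (SD, n = 3 each), and these groups overlapped, since PJ 1 and PJ 2 lay below Sham 3. The 3 PJ libraries were above the 3 Sham libraries for 4 enzymes, Alas1, Alad, Uros and Cpox, an order found in 26.8% of tested genes.

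The extract groups were also compared with each other, although their doses differed. P femurs had lower Urod, Cpox and Fech than J femurs, where 3.05% of tested genes were called lower. The log2 fold changes were -1.04 ± 0.28, -1.21 ± 0.28 and -1.50 ± 0.38 (SE) for Urod, Cpox and Fech, with limma adjusted p of 0.0457, 0.0364 and 0.0413. That count of 3 became 7 without PJ 3, and 1 without Sham 1, OVX 1 or PJ 1. It became 0 without Sham 2, OVX 2, P 1, P 3 or any 1 of the J libraries. Genes called lower over all tested genes moved too, from 439 in the main fit to 1005 without PJ 3. They numbered 179, 203 and 211 without Sham 1, OVX 1 and PJ 1 in that order. Without J 2 they numbered 239, and without Sham 2, OVX 2, P 1, P 3, J 1 or J 3 they numbered 0. PJ femurs had lower levels than J femurs for 7 enzymes, all except Alas1, where 5.88% of tested genes were called lower. Alas2 differed most, at -3.18 ± 0.60 (limma adjusted p = 0.00781). In mean FPKM Alas2 was 7.21-fold lower in PJ than in J, and 15.0-fold lower without PJ 3. Between PJ and P no enzyme passed, where 0.0% of tested genes were called lower by limma, and 6 enzymes and 296 genes had an unadjusted p below 0.05. No enzyme passed there with voom either. The log2 fold change of PJ against P was -1.40 ± 0.60 for Alas2 and 0.02 ± 0.26 for Alas1 (SE). The PJ and P libraries overlapped for every enzyme. In mean FPKM Alas2 was 2.32-fold lower in PJ than in P, 4.81-fold without PJ 3 and 1.53-fold without P 2.

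The order of the enzymes by level was not the same in all groups. Alas2 had the highest mean FPKM in all 5 groups, and in P, J and OVX its lowest library was above the highest library of the next enzyme. In PJ and in Sham the next enzyme was Urod and the libraries of Alas2 and Urod overlapped, with mean FPKM of 72.3 and 32.6 in PJ and of 25.8 and 22.1 in Sham. In OVX the order after Alas2 was Cpox, Fech and Urod, at 211, 208 and 198 FPKM, which overlapped one another. Alad, at 136 FPKM, then Ppox at 52.3, Uros at 35.0 and Alas1 at 22.2 FPKM followed. In Sham the order after Urod was Cpox, Ppox, Fech and Alad, at 11.9, 11.8, 10.6 and 9.54 FPKM, each overlapping the next, and then Alas1 at 6.42 and Uros at 2.24 FPKM.

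**Figure D3:**
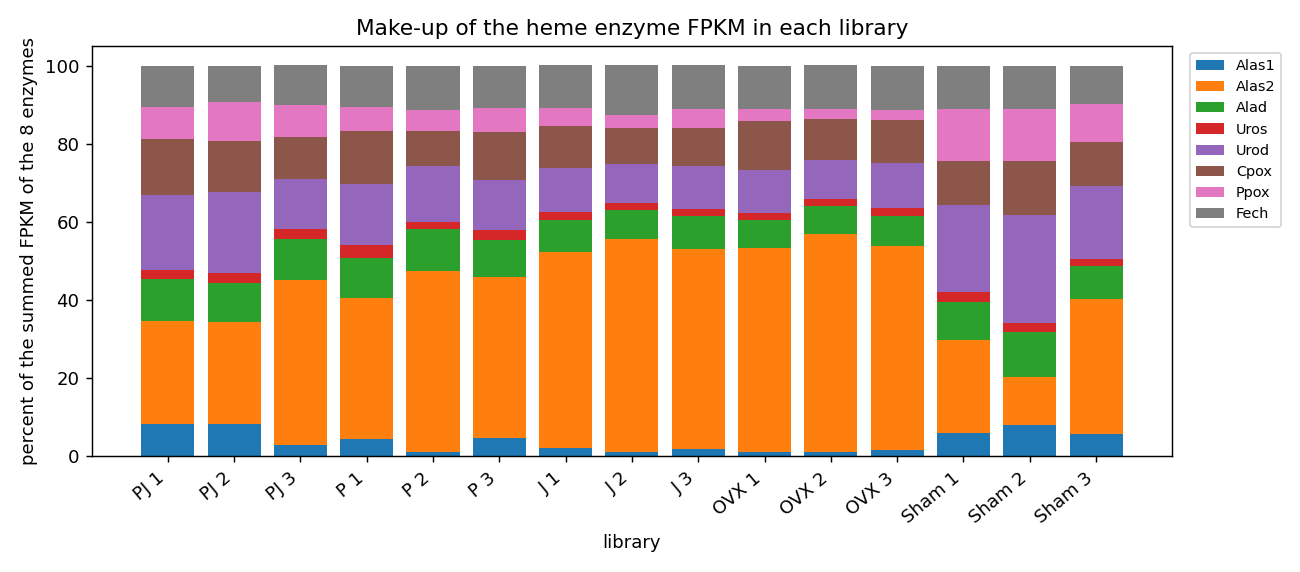
Share of each enzyme in the summed FPKM of the 8 enzymes (vertical axis, percent) in each library, with PJ, P and J left of OVX and Sham. Alas2 holds 52.2% to 55.7% in OVX libraries and 12.3% to 34.6% in Sham libraries, while Urod and Ppox take larger shares in Sham.

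The summed FPKM of the 8 enzymes was 121 to 347 in PJ, 265 to 607 in P, 902 to 1082 in J, 1496 to 2046 in OVX and 77.2 to 135 in Sham libraries. Within that sum, Alas2 made up 26.1% to 42.4% in PJ, 36.0% to 46.4% in P, 50.2% to 54.7% in J, 52.2% to 55.7% in OVX and 12.3% to 34.6% in Sham. The OVX and Sham libraries did not overlap in this share. Of the FPKM of the 2 synthases together, Alas2 held 97.8% ± 0.52 in OVX and 75.5% ± 12.9 in Sham (SD, n = 3 each). In PJ the share was 75.9% in PJ 1, 75.9% in PJ 2 and 93.8% in PJ 3, and in P it was 89.1%, 97.6% and 90.0% in libraries 1 to 3. J libraries, at 95.9%, 98.2% and 96.5%, lay close to OVX, at 98.2%, 97.9% and 97.2%, and J 2 was above all 3 OVX libraries. These shares are descriptions and were not tested.

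The median fold changes of red cell, neutrophil and megakaryocyte markers had the direction of the enzymes in OVX against Sham and in each extract against OVX. To set beside the marker counts that follow, 25.3% of all tested genes were called higher and 28.9% lower in OVX against Sham. Against OVX, 14.6% were called lower and 29.8% higher in PJ, 15.0% and 24.2% in P, and 2.79% and 3.27% in J. All 12 red cell markers, among them the band 3 anion exchanger Slc4a1 and the hemoglobin gene Hba-a1, were called higher in OVX than in Sham and lower in PJ and in P than in OVX, and 1 of 12 was called lower in J than in OVX. Their median log2 fold change was -4.22 in PJ, -2.64 in P and -1.18 in J against OVX, and 6.05 in OVX against Sham. Their summed FPKM was 1144 to 5309 in PJ, 2954 to 8316 in P, 15502 to 18951 in J, 28054 to 37248 in OVX and 325 to 2008 in Sham. PJ 3 and P 2 gave the top of the range in their groups, as for the enzymes. No red cell marker was at 0 in any whole group.

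Of 9 tested neutrophil markers, 9 were called lower in PJ, 8 in P and 0 in J against OVX, and 9 were called higher in OVX against Sham. Of 8 megakaryocyte markers, 8 were called lower in PJ, 8 in P and 2 in J against OVX, and 8 were called higher in OVX against Sham. In PJ against Sham, 9 of 9 tested neutrophil and 7 of 8 megakaryocyte markers were called higher, beside 1 of the 8 enzymes. Within P, neutrophil markers did not follow the enzymes, since P 2 had the lowest sum, 3595 FPKM, against 4895 in P 1 and 6903 in P 3. Of 7 B cell markers 6 were called higher in OVX against Sham, but 0 were called in PJ, P or J against OVX, where their medians were 0.01, -0.27 and 0.87 on the log2 scale. Of 8 macrophage markers, 3 were called higher in PJ, 1 in P and 0 in J against OVX, and 0 were called in OVX against Sham. Neutrophil markers summed to 20371 to 23660 FPKM in OVX and 267 to 640 FPKM in Sham, and megakaryocyte markers to 1776 to 2880 FPKM in OVX and 46.6 to 87.7 FPKM in Sham. Cartilage markers went the other way, with 3.25 to 10.3 FPKM in OVX and 4714 to 10249 FPKM in Sham, and all 7 tested were called lower in OVX. Endothelial markers summed to 66.3 to 94.4 FPKM in OVX and 365 to 604 FPKM in Sham, and all 7 were called lower. Against OVX, endothelial markers were called higher for 7 of 7 in PJ, 7 in P and 2 in J, osteoblast markers for 3 of 8 in PJ, 5 in P and 0 in J, and osteoclast markers for 5 of 7 in PJ, 4 in P and 0 in J. Cartilage markers were called higher for 2 of 7 tested in PJ, 3 in P and 0 in J. The PJ counts of macrophage, osteoblast and cartilage markers were near the 29.8% of all tested genes called higher there. Even so, the summed cartilage, osteoblast and osteoclast markers of every PJ, P and J library lay above those of every OVX library. Of 8 adipocyte markers, 8 were called higher in PJ, 4 in P and 0 in J against OVX, and 0 were called in OVX against Sham. P 2 held 928 FPKM of skeletal muscle markers and 3641 FPKM of cartilage markers, the most of the P libraries, and 36.8% of its FPKM was mitochondrial, against 11.4% to 25.1% in the other 14 libraries. PJ 3 held 35.4 FPKM of cartilage markers and 1344 FPKM of osteoblast markers, the least of the PJ libraries. It also held 9054 FPKM of neutrophil markers, the most of the PJ libraries. The part of these cell types, of the piece of bone sampled and of RNA quality in the enzyme results was not tested.

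Each enzyme was therefore also given relative to the red cell markers of its own library, as log2(FPKM + 1) minus the mean of the 12 markers. For Alas2 this value was 1.78 ± 0.33 in PJ, 1.61 ± 0.23 in P, 1.95 ± 0.21 in J, 1.68 ± 0.11 in OVX and 2.14 ± 0.48 in Sham (SD, n = 3 each), and every group overlapped Sham. For the other 7 enzymes all 3 OVX libraries lay below all 3 Sham libraries on this relative scale. The markers had a median log2 fold change of 6.05 in OVX against Sham, beside -0.04 over all tested genes. Any gene that rose clearly less than the markers, or did not change, falls on this scale. The order of OVX and Sham was thus largely set by the markers, and its share over all tested genes was not computed. Alas1 averaged -3.73 ± 0.23 in OVX and 0.54 ± 0.47 in Sham, and Ppox -2.56 ± 0.22 in OVX and 1.33 ± 0.48 in Sham (SD, n = 3 each), the 2 largest gaps. Fech, at -0.57 ± 0.07 in OVX and 1.17 ± 0.34 in Sham, had the smallest gap of those 7. PJ libraries lay between OVX and Sham for Ppox, at 0.03 ± 0.63, and for Fech, at 0.21 ± 0.42. These values are descriptions with no test, and the added 1 weighs more in Sham, where red cell markers were low.

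**Figure D4:**
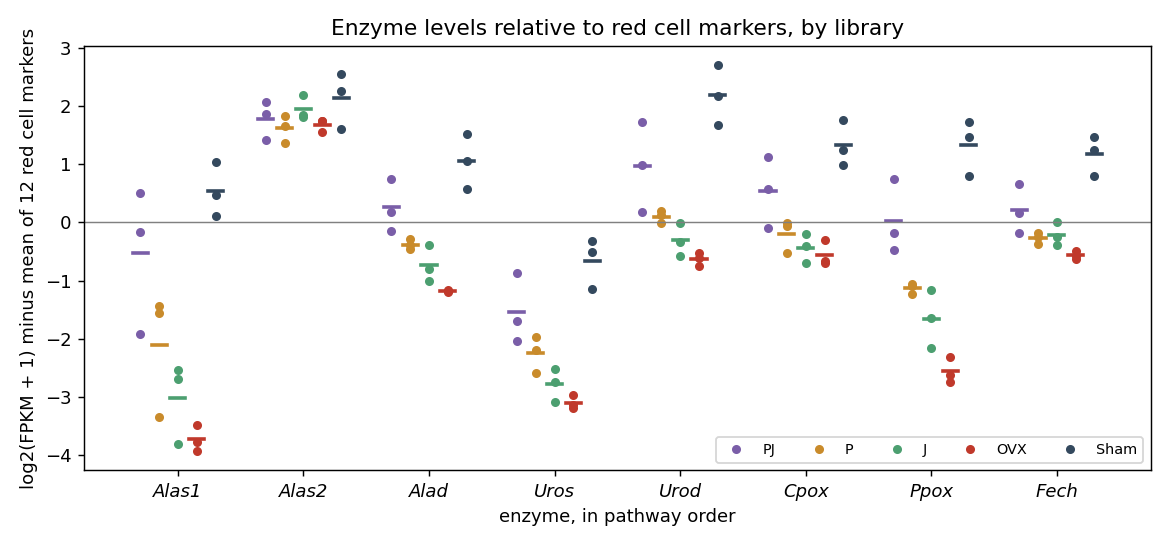
Log2(FPKM + 1) of each enzyme minus the mean of 12 red cell markers in the same library (vertical axis), with 1 point per library and a line at the group mean, for PJ, P, J, OVX and Sham. Alas2 lies between 1.37 and 2.54 in all 15 libraries, while the other enzymes are lower in OVX than in Sham on this scale. Any gene that rose clearly less than the markers in OVX also falls here.

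Genes that carry intermediates, iron and heme were counted from a list of 23, all tested. Of these, 15 rose and 3 fell in OVX against Sham, with a median log2 fold change of 0.99, where 25.3% of all tested genes were called higher and 28.9% lower. Abcb10, a mitochondrial transporter needed for red cell heme synthesis, rose by 3.73 ± 0.28 on the log2 scale (SE, limma adjusted p = 5.34e-07). Pgrmc1, a heme-binding membrane protein that contacts ferrochelatase, fell by 1.57 ± 0.20 (adjusted p = 3e-05), and Flvcr2, a transporter of the FLVCR family, fell by 1.53 ± 0.29 (adjusted p = 0.000588). Flvcr2 was low, at 0.768 FPKM in OVX and 4.16 FPKM in Sham, so the added 1 lowers its fold change.

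Against OVX, 13 of the 23 fell and 4 rose in PJ, 13 fell and 3 rose in P, and 4 fell and none rose in J, with medians of -0.76, -0.78 and -0.40 in that order. Over all tested genes 14.6% were called lower and 29.8% higher in PJ, 15.0% lower and 24.2% higher in P, and 2.79% lower and 3.27% higher in J. Eif2ak1, the kinase that slows protein synthesis when heme is short, fell in PJ, P and J. Its log2 fold changes were -1.58 ± 0.15 in PJ, -1.35 ± 0.15 in P and -0.69 ± 0.15 in J (SE), with limma adjusted p of 1.8e-05, 7.6e-05 and 0.0226. Pgrmc1 rose by 1.43 ± 0.20 in PJ and 1.36 ± 0.20 in P (limma adjusted p = 0.000145 and 0.000293), and Flvcr2 by 1.50 ± 0.29 and 1.48 ± 0.29 (adjusted p = 0.0012 and 0.00164). Flvcr2 averaged 4.10 FPKM in PJ and 4.11 FPKM in P, against 0.768 FPKM in OVX.

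Of 5 genes of heme breakdown and scavenging, 3 rose and 1 fell in OVX against Sham, where 25.3% of all tested genes were called higher and 28.9% lower. Blvrb and Blvra, which encode biliverdin reductases B and A, rose by 3.03 ± 0.20 and 1.12 ± 0.19 on the log2 scale (SE, limma adjusted p = 2.77e-07 and 0.000269). Hpx, the heme-binding plasma protein hemopexin, fell by 1.20 ± 0.20 (adjusted p = 0.000252), at 0.548 FPKM in OVX and 2.55 FPKM in Sham. Against OVX, 3 fell and 2 rose in PJ, 2 fell and 1 rose in P, and 1 fell in J. The shares over all tested genes were 14.6% lower and 29.8% higher in PJ, 15.0% and 24.2% in P, and 2.79% and 3.27% in J. The log2 fold changes of Blvrb were -2.37 ± 0.20 in PJ, -1.79 ± 0.20 in P and -0.93 ± 0.20 in J (SE, limma adjusted p = 1.8e-05, 8.6e-05 and 0.0249), and Blvra fell by 0.72 ± 0.19 in P (adjusted p = 0.00927). Hmox1, the inducible heme oxygenase, fell by 1.49 ± 0.48 in PJ (adjusted p = 0.0229), and Hmox2, the constitutive form, rose by 0.63 ± 0.18 (adjusted p = 0.0131). Hpx rose by 0.98 ± 0.20 in PJ and 0.87 ± 0.20 in P (limma adjusted p = 0.0018 and 0.0044).

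All 6 red cell regulators (Gata1, Klf1, Tal1, Nfe2, Zfpm1 and Epor) rose in OVX against Sham and fell in PJ and in P against OVX, and 1 fell in J. Over all tested genes 25.3% were called higher in OVX against Sham, and 14.6%, 15.0% and 2.79% lower in PJ, P and J against OVX. Gata1, which encodes a GATA family factor of red cell precursors, averaged 84.2 FPKM in OVX and 1.13 FPKM in Sham, a log2 fold change of 5.35 ± 0.44 (SE, limma adjusted p = 1.04e-06). It fell by 3.80 ± 0.44 in PJ against OVX (adjusted p = 4.2e-05). Nfe2, which encodes a leucine zipper factor of red cells and platelets, rose by 4.62 ± 0.36 in OVX against Sham (adjusted p = 7.59e-07) and fell by 2.15 ± 0.36 in P against OVX (adjusted p = 0.000682). Zfpm1, which encodes the GATA1 cofactor FOG1, fell against OVX, with log2 fold changes of -2.04 ± 0.24 in PJ, -1.79 ± 0.24 in P and -0.99 ± 0.24 in J (SE, limma adjusted p = 5.3e-05, 0.000192 and 0.0354).

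The genes most like each enzyme were taken as the 3 with the smallest root mean square difference over the 15 libraries, after each gene was centred on the log2(FPKM + 1) scale. For Alas2 they were the globin genes Hbb and Hba-a1, at 0.17 and 0.18, and Rhd at 0.27. For Alas1 they were Lta4h, at 0.14, and Chek1 and Mak, at 0.20 each. Abcb10 was among the 3 for Alad, Uros and Cpox, at 0.19, 0.17 and 0.19. For Fech they were Glrx5, Myo5c and Slc25a37, at 0.18, 0.18 and 0.19, of which Slc25a37 encodes the mitochondrial iron importer mitoferrin. For Urod Prdx2 came first, at 0.14, followed by Foxi2 and Dpf3, and for Ppox Tmem184a came first, at 0.13, followed by LOC108352688 and Abtb1. Some of the genes named were low, with means of 1.14 FPKM for Mak, 1.60 for Tmem184a, 1.84 for LOC108352688, 2.88 for Dpf3 and 3.23 for Foxi2. The added 1 shrinks the differences of such genes between libraries, and thus bears on their distance from an enzyme. The list was completed by Ubac1 and Dhrs11 for Alad, Slc14a1 and Trim59 for Uros, and Gp1ba and Inhca for Cpox. Among the enzymes, Alad and Uros were closest on the same measure, at 0.20, and Alas1 and Alas2 farthest apart, at 1.66.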

How the data were processed

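The deposited files give 1 FPKM value per gene and library, made by the authors. Their column is named count, but it holds fractional values scaled by the length of each gene, so they were treated as FPKM. The build was mRatBN7.2, and fastp 0.23.4, featureCounts 2.0.6 and STAR 2.7.11a are named, per the submitters' processing notes. Use of strand is not given in the sources. Whole reads were recovered from the steps of the values for 24206 of 24207 genes above 0 (tolerance 0.05), and 60.0% of counts from 1 to 20 were even, so read ends rather than pairs may have been counted.

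Values were analysed as log2(FPKM + 1), which understates fold changes of low genes. The 14416 genes averaging 1 FPKM or more were fitted over all 15 libraries with limma 3.58.1 in R 4.3.3 (5 groups, variance trend, 10 residual degrees of freedom, two-sided, Benjamini-Hochberg over all tested genes, threshold 0.05). The fit was tested on simulated data. Enzymes were found by symbol and all are named. Of each pathway list, the 2 called genes of smallest p in each direction were named, except for a gene that is not reported here. The enzymes, lists and alternatives were chosen with earlier results of these data known. Alternatives were another pseudocount, other filters, TPM, median-ratio scaling, removal of mitochondrial and globin genes, array weights, compared groups only, the replicate number as a block, libraries left out and, chosen after seeing the files, voom on recovered reads. Promoter windows came from RefSeq (GRCr8), so their coordinates are not those of the files' build. Protein sequences were not used here.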

Additional observations from a re-analysis of the deposited data

How the results depend on the processing

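The counts of enzymes called in OVX against Sham, PJ against OVX, P against OVX, J against Sham and PJ against J stayed within 1.5 times their values in all alternatives run. Of 832 recomputed fold changes of single enzymes, 801 kept their direction and side of the threshold, 16 newly passed, 15 no longer passed and 0 reversed. For J against OVX, where 1 enzyme was called, the count was 0 with no filter, 5 with array weights, 6 with the compared groups only, 0 with the replicate block, 5 without P 2 and PJ 3, 0 with voom, and 0 to 3 with each library left out. For PJ against Sham, where 1 was called, it was 0 with no filter, median-ratio scaling, removal of mitochondrial and globin genes, the compared groups only, the replicate block, voom, or without P 2 and PJ 3, 7 with array weights, and 0 to 3 with each library left out. For P against J, where 3 were called, it was 1 with a pseudocount of 0.1, 0 with no filter, TPM or the compared groups only, 7 with array weights or without P 2 and PJ 3, and 0 to 7 with each library left out. For P against Sham, where 6 were called, it was 3 with the compared groups only and 3 to 7 with each library left out. For PJ against P it was 1 with array weights. Calls over all tested genes, 14416 in the main fit, moved too. In J against OVX 402 genes were called lower in the main fit, 1200 with array weights and 610 with the compared groups only. In PJ against Sham 1113 were called higher, and 5215 with array weights. In P against J 439 were called lower, 1791 with array weights and 0 with no filter, TPM or the compared groups only. In P against Sham 858 were called higher, and 454 with the compared groups only. The cause was not tested. Correlations of the deviations of same-numbered libraries ran from -0.409 to 0.488 over the 10 comparisons, and in none were all 3 pairs over 0.1, so the numbers were not taken as pairs, and the replicate block changed no other count by over 1.5 times. Median-ratio scaling moved the median of all genes by -0.25 (log2) in PJ, -0.17 in P and -0.10 in J against OVX, where genes called lower then numbered 3569, 3385 and 947, beside 2103, 2160 and 402 as deposited. Rescaling to TPM moved it by 0.14 in PJ against OVX and by -0.12 in OVX against Sham. With 3 libraries a group, the spread of P and PJ limits what these tests can show.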
